A study of Caenorhabditis elegans with 11 samples.

Results

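SACY-1, the worm counterpart of human DDX41, is a DEAD-box RNA helicase found in spliceosomes, the complexes that cut out introns and join exons. The comparison described here set worms depleted of SACY-1 in somatic cells against worms of a control strain, first for transcript levels and then for splicing of the same RNA. All rows of the deposited expression table (882 of 882 genes) and the 3026 of 3096 deposited splicing events with a soma value were taken. The collagen, sperm and heat-shock genes are set apart, and the account is of the other 781 genes.

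Soma-depleted worms (3 samples, strain DG4703) carried the sacy-1 allele tn1880 on chromosome I, which fuses aid (an auxin-inducible degron), gfp and myc to the protein. They also carried ieSi57 on chromosome II, a transgene in which the eft-3 promoter (eft-3p) drives TIR1::mRuby, a plant F-box protein with a red tag, in somatic cells, with the 3' end of unc-54 and a rescuing copy of unc-119, Cb unc-119(+). Soma controls (2 samples, replicates 1 and 3, strain CA1200) carried the same ieSi57 transgene with untagged sacy-1 and the mutation unc-119(ed3) III. The genotype given for the depleted strain does not name unc-119(ed3), so strain background and depletion cannot be told apart. The germline groups used for side-by-side values had the transgene ieSi64 in place of ieSi57, with TIR1::mRuby under the gld-1 promoter and gld-1 3' end and the same Cb unc-119(+). They were 3 depleted samples of DG4700 with the same tagged sacy-1, and 3 controls of CA1352 with unc-119(ed3). All 4 groups, controls included, were young adults kept on 2 mM auxin for 24 h at 20 °C in the dark. Poly(A)+ RNA came from lysates of whole worms, so a lower value can mean fewer cells of a type or less RNA per cell, which cannot be told apart.

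With auxin, TIR1 marks a degron-tagged protein for destruction by the proteasome, which removes the protein and leaves its mRNA to be made. Splicing ends when the intron is cut at its 3' end, the acceptor site. Where 2 acceptor sites lie close together, the choice between them changes the mRNA by a few bases, and by whole codons where the distance is a multiple of 3. Nuclear hormone receptors, apical matrix proteins, insulin-like peptides and C-type lectins are among the gene families that worms hold in large numbers.

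The deposited values are group means in FPKM (fragments scaled to transcript length and library size), with log2 fold changes and adjusted p-values that the authors took from DESeq2, so no value has a replicate spread and the depth per sample is unknown. Each of the 882 genes had been selected by the authors for passing in at least 1 comparison, that of the soma or that of the germline. A share of passing genes is therefore a share of this selected list. The transcript of sacy-1 was not among the listed genes or events, and it would not measure depletion of the protein. Of markers of other cell types, 0 of 12 oocyte and embryo, 0 of 7 germline, 0 of 6 intestine and 0 of 4 muscle genes were listed. The listed ones were 3 of 5 hypodermal markers, all collagens, and 1 of 5 neuronal markers, unc-119. unc-119, which encodes a lipid-binding trafficking protein of neurons, averaged 22.8 FPKM in soma-depleted worms and 8.91 FPKM in soma controls. It averaged 7.96 FPKM in germline-depleted worms and 5.74 FPKM in germline controls. Both control strains carry unc-119(ed3) and all 4 strains a transgenic unc-119 copy, and their part in these values was not tested.

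At an adjusted p under 0.05, 525 of the 882 listed genes passed in the soma (59.5%), 262 of them higher (29.7%) and 263 lower (29.8%) in depleted worms. The counts given below for each gene list stand against these shares of the whole table. Outside the collagen, sperm and heat-shock lists, 442 of 781 passed, 200 higher and 242 lower. The higher genes had a median of 9.30 FPKM in soma-depleted worms and 3.66 FPKM in soma controls. The lower genes had a median of 3.93 FPKM in soma-depleted worms and 9.94 FPKM in soma controls. A log2 fold change of 2 or more in size was reached by 27 higher and 24 lower genes, and of 3 or more by 10 higher and 3 lower genes. For 168 of the 200 higher genes the soma-depleted mean was the highest of the 4 groups. For 218 of the 242 lower genes the soma-depleted mean was the lowest of the 4. The soma control mean was the highest of the 4 for 114 of the lower genes. How reads shared by close copies or overlapping genes were split is not known, which makes single members of families such as clec, fbxa and cyp-33C less certain. Genes known by a sequence name alone made up 120 of the 200 higher and 143 of the 242 lower genes. The log2 ratio of FPKM means used for lists below has 0.1 FPKM added to both means, and its median over all 882 listed genes was -0.07. Over the 781 genes outside the lists set apart it was -0.15.

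**Figure D1:**
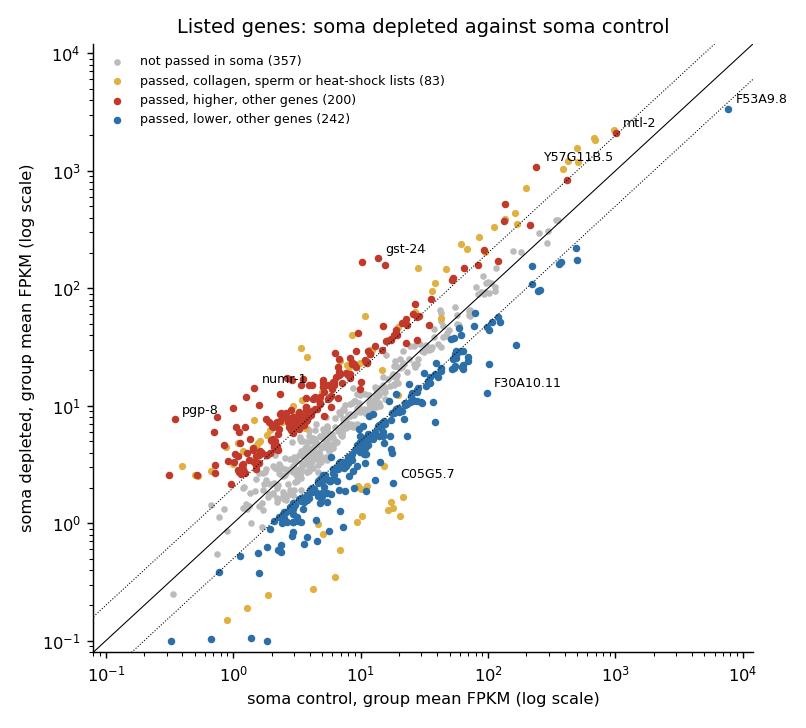
Group mean FPKM in soma-depleted worms (vertical) against soma controls (horizontal), both on log scales, with a point for each listed gene. The solid line marks equal means and the dotted lines a 2-fold difference. The 200 higher genes outside the lists set apart lie above the line and the 242 lower ones below it, and pgp-8 and gst-24 stand among those farthest above.

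Genes of detoxification and transport included the largest increase. The transporter gene pgp-8, which encodes a P-glycoprotein of the ABC family, averaged 7.69 FPKM in soma-depleted worms and 0.348 FPKM in soma controls. Its log2 fold change of 4.47 was the largest in the authors' deposited table. Of 3 listed ABC transporter genes, abt-2, of the ABCA class, was also higher (3.94 FPKM in depleted worms, 1.69 FPKM in controls). pgp-1 was lower, at 3.13 FPKM in depleted worms and 7.16 FPKM in controls. gst-24, a glutathione S-transferase gene, averaged 181 FPKM in soma-depleted worms and 13.7 FPKM in soma controls, with 13.2 and 11.3 FPKM in germline-depleted and germline control worms. The list of UDP-glucuronosyltransferases and glutathione transferases was split, with 3 higher and 4 lower among 8 listed. Within it ugt-63 was higher (35.6 FPKM in depleted worms, 15.8 FPKM in controls), as was ugt-39 (18.8 FPKM in depleted worms and 8.21 FPKM in controls), while ugt-25 was lower (17.5 FPKM in depleted worms, 40.7 FPKM in controls). These are conjugating enzymes of phase 2.

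The phase 1 enzymes, which oxidise or hydrolyse small molecules, were 4 higher and 1 lower of 5 listed, with a median log2 FPKM ratio of 1.30. All 4 higher genes were cytochromes P450. cyp-33C1 averaged 2.55 FPKM in soma-depleted worms and 0.518 FPKM in soma controls. cyp-33C2 averaged 2.83 FPKM in depleted worms and 1.09 FPKM in controls. cyp-33B1 had 7.22 FPKM in depleted worms against 2.23 FPKM in controls, and cyp-37A1 had 36.01 FPKM in depleted worms and 17.2 FPKM in controls. The lower member was cest-1, a carboxylesterase gene, with 22.3 FPKM in soma-depleted worms and 64.1 FPKM in soma controls. Its log2 fold change was -1.52 in the soma (DESeq2 adjusted p = 1.9e-38) and 0.38 in the germline comparison (DESeq2 adjusted p = 0.0011) in the authors' deposited table. These calls concern 5 of the 170 annotated genes whose names match the phase 1 list.

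All 4 listed genes of the metal response list rose, at levels that lay far apart. mtl-2, a metallothionein gene whose protein binds heavy metals, averaged 2101 FPKM in soma-depleted worms and 1006 FPKM in soma controls. The iron storage gene ftn-1, a ferritin, averaged 50.8 FPKM in depleted worms and 21.04 FPKM in controls. numr-1 and numr-2, adjacent and near-identical genes whose nuclear proteins respond to metals, averaged 14.04 and 7.97 FPKM in depleted worms and 1.46 and 0.748 FPKM in controls, and reads of the pair can be shared. In germline-depleted worms numr-1 averaged 1.32 FPKM, and in germline controls 0.664 FPKM.

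Nuclear hormone receptors are transcription factors that bind small lipophilic ligands, and worms carry a greatly expanded set. All 9 listed members passed, 7 higher and 2 lower, with a median log2 FPKM ratio of 1.19 against -0.07 over all listed genes. Genes were listed for a log2 fold change of 1 or more in size in either comparison. This median therefore mostly restates the direction counts. nhr-180 (WBcel235, chrV:665919-667510) averaged 16.5 FPKM in soma-depleted worms and 5.04 FPKM in soma controls, a log2 fold change of 1.71 in the authors' deposited table (DESeq2 adjusted p = 6.5e-21). In the germline groups nhr-180 averaged 6.42 FPKM after depletion and 9.40 FPKM in controls. nhr-71 averaged 15.1 FPKM in soma-depleted worms and 5.56 FPKM in soma controls. For both nhr-180 and nhr-71 the soma-depleted mean was the highest of the 4 groups, as it was in 168 of the 200 higher genes. nhr-243 averaged 18.4 FPKM in depleted worms against 7.99 FPKM in controls. nhr-133 averaged 23.8 FPKM in depleted worms and 11.01 FPKM in controls. Thus the 4 receptors with the smallest adjusted p were all higher in soma-depleted worms, each at a mean over 15 FPKM. The names of 274 annotated genes match this list. Of 10 listed genes of other transcription factor families 2 passed, both lower: ztf-2, a zinc finger gene, had 1.66 FPKM in depleted worms and 3.93 FPKM in controls, and ref-2, a Zic-type zinc finger gene, had 1.25 FPKM in depleted worms and 2.50 FPKM in controls.

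Genes of the lipid list were 7 higher and 1 lower of 8 listed, against 29.7% higher and 29.8% lower among all listed genes. Their median log2 FPKM ratio was 1.14, against -0.07 over all listed genes, which by the same listing rule mostly restates the direction counts. hach-1 (chrIII:5555450-5557318), which encodes a 3-hydroxyisobutyryl-CoA hydrolase and stands in this list as an acyl-CoA enzyme although it acts in valine breakdown, averaged 148 FPKM in soma-depleted worms and 64.7 FPKM in soma controls. Its log2 fold change of 1.20 had a DESeq2 adjusted p of 1.0e-23 in the authors' deposited table. acdh-2, an acyl-CoA dehydrogenase gene, averaged 7.40 FPKM in depleted worms and 2.31 FPKM in controls. The stearoyl-CoA desaturase gene fat-7 averaged 48.5 FPKM in depleted worms and 23.004 FPKM in controls. The vitellogenin gene vit-3, whose product is a yolk protein, averaged 5.12 FPKM in depleted worms and 1.98 FPKM in controls. Of these 4 genes only vit-3 passed in the germline comparison, where vit-3 had 7.56 FPKM in germline-depleted worms and 5.06 FPKM in germline controls. The list of carbohydrate, amino acid and one-carbon metabolism, which does not hold hach-1, had 2 listed genes, and both fell. The glycine cleavage gene gcsh-1 averaged 25.7 FPKM in soma-depleted worms and 55.7 FPKM in soma controls. The trehalase gene tre-4 averaged 2.36 FPKM in depleted worms and 4.82 FPKM in controls.

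**Figure D2:**
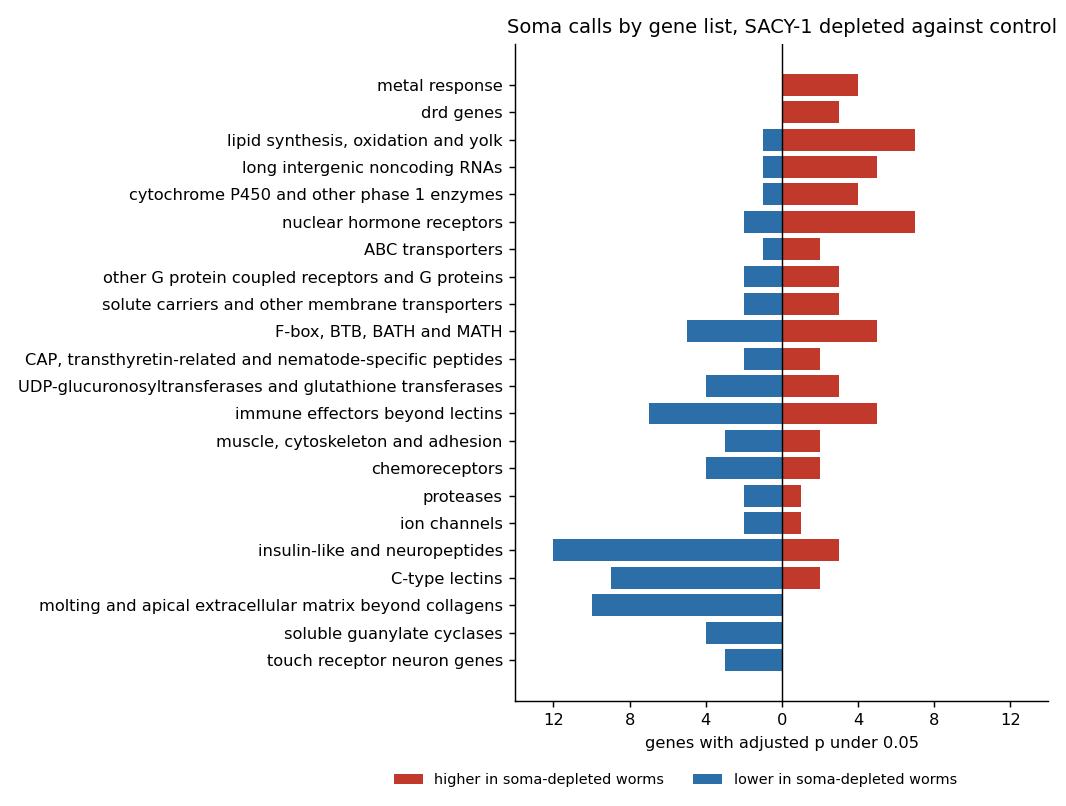
Genes with an adjusted p under 0.05 in the soma, by gene list, with those lower in depleted worms to the left of 0 and those higher to the right. Lists with at least 3 such genes are shown without collagens, sperm and heat-shock genes. Metal response stands at 4 higher and 0 lower, and the molting and apical matrix list at 0 higher and 10 lower.

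The apical extracellular matrix is the coat that lines epithelia before and between molts. Genes of the molting and apical matrix list were lower wherever they passed. This list was built from symbols and is mixed, as it also takes in the tetraspanin gene tsp-10. Of 14 listed members 10 passed and all 10 were lower, against 29.8% lower among all listed genes, with a median log2 FPKM ratio of -1.06. The other 4 did not pass. Of the 10, 4 also passed in the germline comparison, all 4 lower there too, among them lpr-5 and mlt-7. In 9 of the 10 the soma-depleted mean was the lowest of the 4 groups, a share near the 218 of all 242 lower genes. sym-1 (chrX:14581622-14584378), which encodes an extracellular leucine-rich repeat protein, averaged 5.56 FPKM in soma-depleted worms and 15.1 FPKM in soma controls. The germline means of sym-1, which did not pass there, were 26.1 FPKM after depletion and 30.8 FPKM in controls. lpr-5 (chrX:11062123-11064539), a lipocalin-related gene of the cuticle matrix, averaged 3.89 FPKM in soma-depleted worms and 10.6 FPKM in soma controls, a log2 fold change of -1.43 in the authors' deposited table (DESeq2 adjusted p = 1.6e-11). mlt-7, a peroxidase gene needed for molting, averaged 6.86 FPKM in depleted worms and 13.9 FPKM in controls. The tetraspanin gene tsp-10 averaged 19.8 FPKM in depleted worms and 42.5 FPKM in controls. Other members, chosen after their values were seen, were noah-2, a zona pellucida domain gene, at 7.15 FPKM in depleted worms and 14.7 FPKM in controls, and let-4, another leucine-rich repeat gene, at 1.63 FPKM in depleted worms and 3.66 FPKM in controls. The hedgehog-related gene qua-1 was also lower, at 3.14 FPKM in soma-depleted worms and 6.80 FPKM in soma controls, the 1 that passed of 4 listed in its list. bus-1, named for the bacterially unswollen phenotype of its mutants, averaged 0.625 FPKM in depleted worms and 1.83 FPKM in controls.

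Insulin-like and neuropeptide genes, which encode secreted signals of neurons and gut, were 3 higher and 12 lower among 16 listed, against 29.7% higher and 29.8% lower among all listed genes. Their median log2 FPKM ratio was -1.02. Of the 15 passing genes 7 also passed in the germline comparison, 6 of them in the same direction. ins-33 (chrI:13637845-13639311) averaged 1.07 FPKM in soma-depleted worms and 4.45 FPKM in soma controls. The germline means of ins-33, which did not pass there, were 12.03 FPKM after depletion and 10.5 FPKM in controls. nlp-39 averaged 97.6 FPKM in depleted worms and 255 FPKM in controls. nlp-80 averaged 56.7 FPKM in depleted worms and 120 FPKM in controls. nlp-39 had the highest soma control mean of the passing genes in this list. ins-24 averaged 3.87 FPKM in depleted worms and 11.1 FPKM in controls. Among receptors for such signals, npr-7 and sprr-3 were higher, with 5.26 and 5.24 FPKM in depleted worms and 1.37 and 2.06 FPKM in controls. dmsr-16, related to insect myosuppressin receptors, was higher as well (6.26 FPKM in depleted worms, 2.86 FPKM in controls). The tachykinin receptor gene tkr-1 was lower, at 2.47 FPKM in depleted worms and 5.23 FPKM in controls, as was npr-29, at 3.31 FPKM in depleted worms and 7.21 FPKM in controls. The TGF-beta ligand gene daf-7, which acts in the dauer decision, averaged 5.34 FPKM in soma-depleted worms and 10.8 FPKM in soma controls.

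Soluble guanylate cyclases make cGMP and serve oxygen sensing in a few sensory neurons. This list was added after values were seen: 4 of the 7 annotated members were listed, and all 4 were lower. gcy-37 (chrIV:2150647-2159169) averaged 0.596 FPKM in soma-depleted worms and 2.25 FPKM in soma controls. gcy-36 averaged 1.02 FPKM in depleted worms and 2.97 FPKM in controls. gcy-32 averaged 2.04 FPKM in depleted worms and 5.16 FPKM in controls. gcy-35 averaged 2.298 FPKM in depleted worms and 4.64 FPKM in controls. In each of these 4 genes the control mean was over 2 times the depleted mean. Their germline log2 fold changes were under 1 in size, so a soma change of this size was the condition for listing them. In the germline comparison the log2 fold changes of gcy-35 (-0.66) and gcy-37 (-0.53) passed, and those of gcy-36 (-0.32) and gcy-32 (-0.25) did not, in the authors' deposited table. In all 4 genes the soma-depleted mean was the lowest of the 4 groups, as it was in 218 of the 242 lower genes.

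Chemoreceptors were 2 higher and 4 lower of 11 listed, a share of 54.5% that is near the 59.5% of all listed genes. odr-10, which encodes the diacetyl receptor of an olfactory neuron pair, averaged 3.18 FPKM in soma-depleted worms and 7.60 FPKM in soma controls. sre-6 averaged 4.80 FPKM in depleted worms and 15.1 FPKM in controls. srj-14 averaged 5.38 FPKM in depleted worms and 11.8 FPKM in controls. sru-40 averaged 4.17 FPKM in depleted worms and 9.09 FPKM in controls. In each of these 4 genes the control mean was over 2 times the depleted mean. As their germline log2 fold changes were under 1 in size, they could be listed only with a soma change of this size. The higher receptors were str-31 (3.74 FPKM in depleted worms, 1.10 FPKM in controls) and srr-6 (7.33 FPKM in depleted worms and 3.45 FPKM in controls). For str-31 the germline means were 3.18 FPKM after depletion and 0.380 FPKM in controls. Genes of the touch receptor neurons, a list added after values were seen, showed small decreases in 3 of 5 listed members. mec-7, a beta-tubulin gene, averaged 37.8 FPKM in soma-depleted worms and 54.5 FPKM in soma controls, and all 3 were also lower in the germline comparison, where mec-7 averaged 52.4 FPKM after depletion and 111 FPKM in controls. Each of these 3 had an absolute soma log2 fold change under 1 and was listed through the germline comparison.

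Ion channels and solute carriers gave mixed calls. egas-3, of the degenerin family, averaged 5.99 FPKM in soma-depleted worms and 0.713 FPKM in soma controls, whereas its germline means were 2.71 FPKM after depletion and 3.78 FPKM in controls. The degenerin gene acd-2 (1.32 FPKM in depleted worms, 2.86 FPKM in controls) and the ligand-gated channel gene lgc-23 (1.54 FPKM in depleted worms and 3.39 FPKM in controls) were lower. The other 5 of 8 listed channel genes did not pass. Of 6 listed solute carriers, 3 were higher and 2 lower, with the largest difference in means for folt-2, a folate transporter gene, at 32.3 FPKM in depleted worms and 12.9 FPKM in controls. The amino acid transporter gene aat-8 averaged 2.71 FPKM in depleted worms and 1.10 FPKM in controls. The remaining higher gene, aat-5 (0.50), and the lower gene ncx-2 (-0.54) had soma log2 fold changes under 1 in size. Both were listed through the germline comparison (-1.03 for aat-5, -1.07 for ncx-2). The other lower gene, pitr-4, averaged 0.383 FPKM in depleted worms and 0.773 FPKM in controls. At a soma log2 fold change of 1 or more in size, 2 carriers were higher and 1 lower.

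C-type lectins, secreted proteins with a sugar-binding fold, were 2 higher and 9 lower of 14 listed, against 29.7% higher and 29.8% lower among all listed genes. Their median log2 FPKM ratio was -1.05. clec-174 averaged 9.59 FPKM in soma-depleted worms and 0.991 FPKM in soma controls. clec-52 was the most abundant, at 372 FPKM in depleted worms and 132 FPKM in controls. clec-54 averaged 10.96 FPKM in depleted worms and 27.9 FPKM in controls. clec-227 averaged 16.3 FPKM in depleted worms and 33.5 FPKM in controls. Both were slightly higher in the germline comparison, at 0.41 for clec-54 and 0.35 for clec-227 in log2 fold change (the authors' deposited table). Other immune effectors were 5 higher and 7 lower of 17 listed. The saposin-like genes went both ways, with spp-18 at 221 FPKM in soma-depleted worms and 490 FPKM in soma controls, and spp-17 at 211 FPKM in depleted worms and 92.8 FPKM in controls. abf-6, of the antibacterial factor family, averaged 28.04 FPKM in depleted worms and 57.1 FPKM in controls, and irg-3, an infection response gene, averaged 5.97 FPKM in depleted worms and 12.9 FPKM in controls. The remaining 5 of the 17 did not pass.

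**Figure D3:**
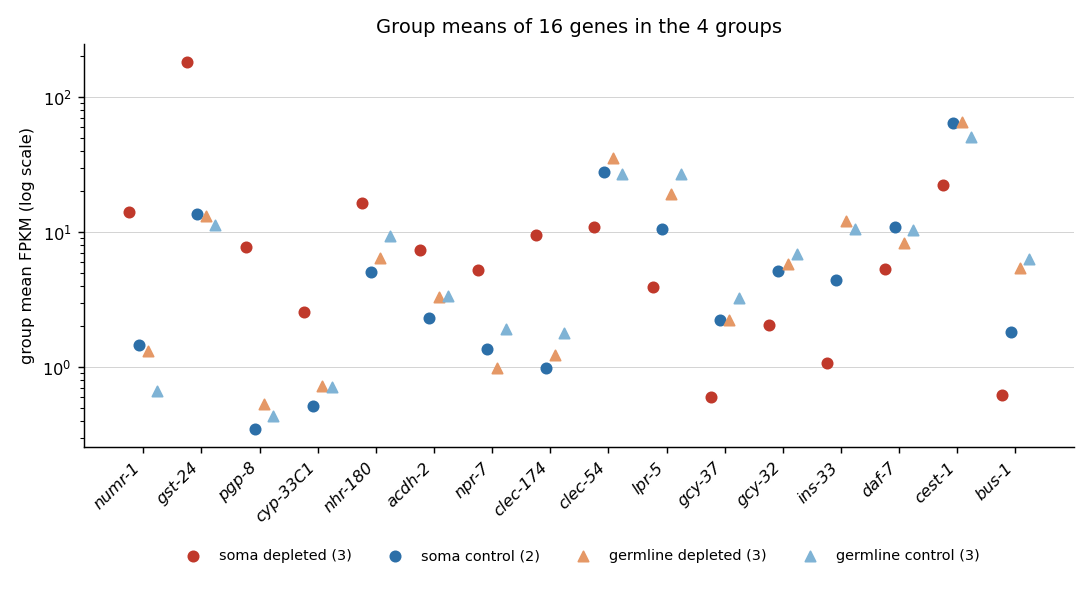
Group mean FPKM (log scale) of 16 genes in soma-depleted, soma control, germline-depleted and germline control worms, as deposited, with the number of samples per group in the legend. The soma-depleted mean is the highest of the 4 in the first 8 genes and the lowest in the other 8. Outside the lists set apart this held for 168 of the 200 higher genes and 218 of the 242 lower genes.

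All 5 listed genes of muscle, cytoskeleton and adhesion passed, 2 higher and 3 lower, with a median log2 FPKM ratio of -0.47, and the 1 listed gene of vesicle traffic and synapse was lower. tba-8 (chrX:9455485-9458348), an alpha-tubulin gene, averaged 0.866 FPKM in soma-depleted worms and 5.65 FPKM in soma controls, a log2 fold change of -2.72 in the authors' deposited table (DESeq2 adjusted p = 2.8e-31). Its germline means were 12.01 FPKM after depletion and 13.4 FPKM in controls. The beta-tubulin gene tbb-6 averaged 9.31 FPKM in soma-depleted worms and 19.3 FPKM in soma controls. arf-1.1, an ADP-ribosylation factor gene, averaged 2.32 FPKM in soma-depleted worms and 12.95 FPKM in soma controls, where the germline groups had 3.08 FPKM after depletion and 2.68 FPKM in controls. For arf-1.1 the soma control mean thus stood above the other 3 groups. The kinesin-like gene klp-13 was higher, at 3.33 FPKM in depleted worms and 1.45 FPKM in controls, as was unc-119. The smallest of these decreases was that of ifc-1, an intermediate filament gene, at 37.2 FPKM in depleted worms and 51.4 FPKM in controls.

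Proteases were 1 higher and 2 lower of 4 listed. nas-20, an astacin metalloprotease gene, averaged 72.9 FPKM in soma-depleted worms and 26.8 FPKM in soma controls, while nas-3 averaged 1.78 FPKM in depleted worms and 5.899 FPKM in controls. The aspartyl protease gene asp-8 averaged 5.55 FPKM in depleted worms and 13.9 FPKM in controls. F-box, BTB, BATH and MATH genes, whose products include substrate adaptors of ubiquitin ligases, passed in 10 of 67 listed, 5 in each direction, a share of 14.9% against 59.5% of all listed genes. Most were listed through the germline comparison. fbxa-92 averaged 0.932 FPKM in depleted worms and 7.32 FPKM in controls. fbxa-163 averaged 8.53 FPKM in depleted worms and 2.35 FPKM in controls. Of genes for the spliceosome and other RNA processing, and of genes for translation, 0 were listed.

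The most abundant genes that passed included several without a family name. F53A9.8, on chromosome X, averaged 3384 FPKM in soma-depleted worms and 7682 FPKM in soma controls. Y57G11B.5 averaged 1085 FPKM in depleted worms and 239 FPKM in controls, a log2 fold change of 2.18 in the authors' deposited table (DESeq2 adjusted p = 6.3e-73). T12B5.15 averaged 523 FPKM in depleted worms and 136 FPKM in controls. The next 3 genes were lower in depleted worms. C02F12.5 averaged 172 FPKM in depleted worms and 500.2 FPKM in controls. H29C22.1 averaged 167 FPKM in depleted worms and 375 FPKM in controls. Y45F10C.2 averaged 162 FPKM in depleted worms and 358 FPKM in controls. Large changes at lower levels were those of F08G2.5 (158 FPKM in depleted worms, 15.5 FPKM in controls) and of F19B10.13 (169 FPKM in depleted worms and 10.2 FPKM in controls). F30A10.11 averaged 12.9 FPKM in soma-depleted worms and 97.9 FPKM in soma controls, and its germline means were 9.95 FPKM after depletion and 8.39 FPKM in controls. So F30A10.11, like arf-1.1, had its highest mean in the soma control group. C05G5.7 averaged 2.18 FPKM in soma-depleted worms and 18.1 FPKM in soma controls, against 62.1 and 63.6 FPKM in the germline-depleted and germline control groups.

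By gene type, 499 protein-coding genes passed in the soma, which is 2.5% of the 19985 annotated. Long intergenic noncoding RNAs passed in 6 of 8 listed, 5 of them higher. linc-37 averaged 29.2 FPKM in soma-depleted worms and 11.4 FPKM in soma controls. linc-108 averaged 8.68 FPKM in depleted worms and 2.59 FPKM in controls. Pseudogenes passed in 15 of 42 (35.7%, against 59.5% of all listed genes), with 14 higher and 1 lower. By chromosome, with all lists included, the share passing ran between 45.7% on chromosome II and 68.6% on chromosome V. The X had 31 higher and 55 lower genes among 127 listed (67.7%), and chromosome III had 33 higher and 22 lower among 84 (65.5%). The drd genes (dietary restriction down-regulated), a list added after values were seen, were all higher (3 of 3), with drd-1 at 60.1 FPKM in depleted worms and 25.7 FPKM in controls.

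The soma and germline comparisons have separate controls. Of the genes outside the lists set apart, 70 of the 200 higher genes also passed in the germline comparison. Of these 70, 50 were higher there too. Of the 242 lower genes 87 also passed there, 64 of them lower. Over all 525 soma genes, 198 passed in both comparisons. Of all listed genes 62.9% passed in the germline comparison. By the selection, that share takes in every listed gene that did not pass in the soma. It is therefore no background for the overlap among soma genes, and no shortage or excess of overlap is drawn from it.

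The splicing table gave, for each event, the authors' difference in inclusion level (the share of transcripts with the variable segment) and a false discovery rate q-value. Which group was subtracted is not stated, so signs are as deposited and no direction of use is drawn from them. Events of a gene are not independent of each other. How the listed events were chosen is not known here. Shares of passing events, here and below, are therefore shares of the listed events and not of all splicing events. Listed events that did not pass may be a selected set as well. In the soma 1606 of 3026 events had a q under 0.05 (53.1%), 1248 negative (41.2%) and 358 positive (11.8%), and 721 had an absolute difference of at least 0.2. The median absolute difference of these events was 0.18 in the soma. The same events had a median absolute difference of 0.043 in the germline comparison, over the 1570 with a germline value. As these events were taken by their soma q, their soma differences are large by that choice. Of them 236 passed in the germline comparison too, 207 with the same sign. Of all events with a germline value 26.5% passed there, a share that takes in listed events that did not pass in the soma. No shortage or excess of overlap is drawn from it.

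Alternative 3' splice sites made up 997 of the passing events, of 1610 with a soma value (61.9%). Their sign was negative in 923 and positive in 74, or 92.6% negative, with a median difference of -0.17 and quartiles of -0.285 and -0.079. Other types were more even. Alternative 5' sites passed in 140 of 333 (42%), 78 negative and 62 positive. Retained introns passed in 283 of 542 (52.2%), 121 negative and 162 positive. Skipped exons passed in 176 of 497 (35.4%), 121 negative and 55 positive, and mutually exclusive exons in 10 of 44 (22.7%), 5 of each sign.

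**Figure D4:**
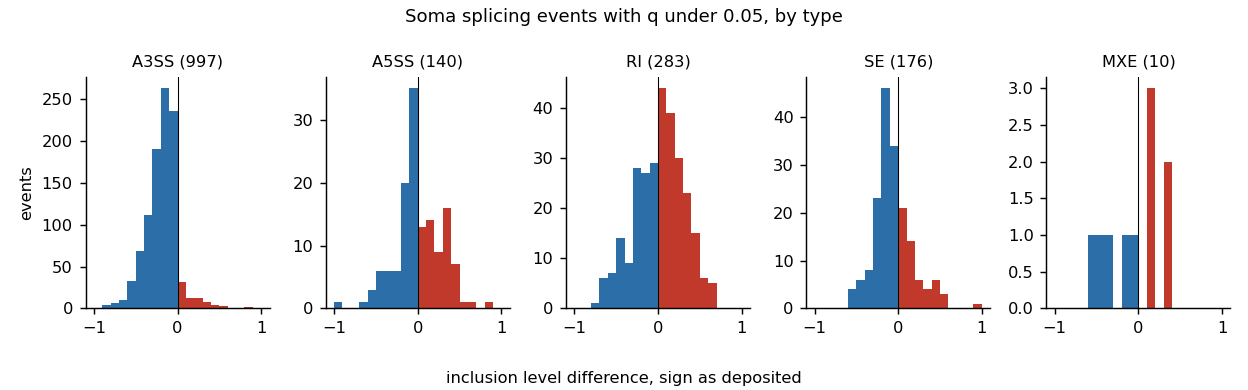
Histograms of the deposited inclusion level difference of soma events with a q under 0.05, in a panel for each type with its number of events: alternative 3' sites (A3SS), alternative 5' sites (A5SS), retained introns (RI), skipped exons (SE) and mutually exclusive exons (MXE). The vertical scales differ between panels. Alternative 3' sites lie mostly below 0, with 923 negative and 74 positive, while retained introns lie on both sides.

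By the nearest annotated site, the alternative 3' sites lay very near each other. For 744 of the 997 passing events an annotated exon existed with the same far edge and a shorter acceptor end. The distance between the acceptor sites could then be read from the annotation. Where several such exons existed the nearest was taken, so a distance can be shorter than that between the sites of the event itself. The median distance was 8.5 bases, 88.7% of the 744 were at most 20 bases apart, and the most frequent distance was 6 bases, in 237 events. Next came 9 bases with 170 events, 7 bases with 59 and 12 bases with 49. The distance was a multiple of 3 in 69.4% of passing events and in 66.5% of the 472 measured events that did not pass. Close spacing was also seen in events that did not pass, of which 83.9% were at most 20 bases apart, so it is shared by the listed alternative 3' events in general. Among passing events, the longer exon form was itself annotated in 326 of 744. In those 326, 89% of distances were multiples of 3 and 92.3% of the variable segments were coding. In the other 418, 54.1% of distances were multiples of 3. The same split stood in the events that did not pass. There the longer form was annotated in 206 of 472, with 79.6% multiples of 3 and 84% coding, and in the other 266 the distance was a multiple of 3 in 56.4%.

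Sign and size varied with the distance. At 1 to 6 bases 256 of 265 events were negative (96.6%, median difference -0.205), and at 7 to 12 bases 361 of 369 (97.8%, median -0.167). At 13 to 20 bases 23 of 26 were negative, and at 21 to 50 bases 8 of 11. At over 50 bases 53 of 73 were negative (72.6%, median -0.073). The median distance was 8 bases for the 701 measured negative events and 36 bases for the 43 measured positive events. At 6 bases, the distance with most events, the median difference was -0.228 in the soma and -0.0415 in the germline comparison for the same events. At 9 bases these medians were -0.206 and -0.053. The deposited q-values also depend on read depth per event, which the table does not hold, and its part in these counts was not tested.

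**Figure D5:**
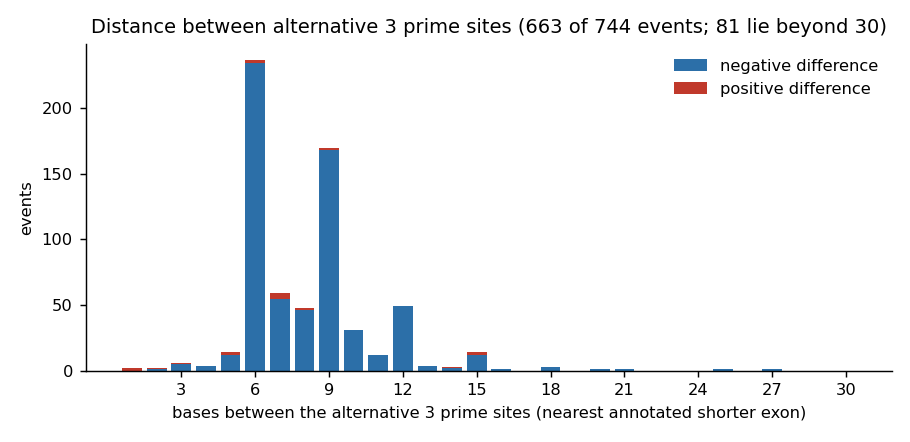
Number of soma alternative 3' events with a q under 0.05 by distance in bases between the acceptor sites, up to 30 bases. Distances are to the nearest annotated shorter exon, and bars are stacked by the sign of the deposited difference. Peaks stand at 6 bases (237 events) and 9 bases (170 events), almost all with a negative difference.

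The largest alternative 3' differences were in genes of many functions, and most of those named here moved the acceptor by a few bases. T16G12.9 had an event at chrIII:10077480-10077652 (WBcel235, exon span) with a difference of -1.0 and a distance of 6 bases within coding sequence. sax-2, a large conserved gene of neurite outgrowth (furry family), had a difference of -0.846 at chrIII:5118612-5118736, with sites 9 bases apart. The chloride channel gene clh-1 had -0.782 at chrII:11847722-11847848 with sites 12 bases apart. In endocytosis, rme-4, a DENN domain gene, had -0.712 with 6 bases, and piki-1, a class II phosphoinositide 3-kinase gene, had -0.741 with 6 bases. jac-1, the p120 catenin gene of adherens junctions, had -0.653 with 6 coding bases, while in the germline comparison its difference was -0.098. The hypoxia-inducible factor gene hif-1 had -0.521 at chrV:20784136-20784392, again with 6 coding bases, and -0.001 in the germline comparison. These differences are from the authors' deposited table, and the distances and coding states were read from the annotation. Positive differences at alternative 3' sites were rarer, with F22B5.5 at 0.871 and rme-8, a J-domain gene of endosomes, at 0.563 in the authors' deposited table. By the annotation their sites lay 8 bases apart in F22B5.5 and 184 bases apart in rme-8.

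Over all genes 53.1% of events passed, and 77.7% of the passing events were negative (92.6% of the alternative 3' ones). By gene list, nuclear hormone receptors passed in 49 of 56 events (87.5%), 41 negative and 8 positive, in 31 gene names. nhr-76 had differences of -0.673 and -0.514 at separate alternative 3' events in the authors' deposited table. Vesicle traffic and synapse genes passed in 38 of 75 events (50.7%, near the share of all events), 37 of them negative, and 30 of the 38 were alternative 3' events. G protein coupled receptors and G proteins outside the chemoreceptors passed in 17 of 18, 15 negative, with frpr-7, a FMRFamide receptor-like gene, at -0.599 in the authors' deposited table. Kinases and phosphatases passed in 33 of 59, 29 of them negative. Genes of RNA processing, of which 0 were listed for expression, had 30 of 83 events pass (36.1%), below the 53.1% of all events. Among them etr-1, a CELF-family RNA-binding gene of muscle, had an alternative 3' difference of -0.558 and a skipped exon of 219 bases at 0.426 in the authors' deposited table, and its acceptor sites lay 6 bases apart by the annotation. Ion channels passed in 27 of 44, with 16 negative and 11 positive. Long intergenic noncoding RNAs had 7 of 9 events pass, and all 7 were negative, 4 of them alternative 3' events. An event counts for a list when any of its gene names matches. Some of these events also name other genes, as that of linc-37 names zip-2.

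Skipped exons change the mRNA by larger segments. Their length had quartiles of 74.8 and 208 bases over 176 passing events and of 83 and 229 bases over 321 that did not pass. The length was a multiple of 3 in 53.4% of passing exons and in 50.8% of those that did not pass. Of the 161 passing exons with an annotation to read, 98 were wholly coding (60.9%), against 175 of 292 that did not pass (59.9%). The shares of multiples of 3 and of wholly coding exons were thus close in passing and other events. fbn-1, a fibrillin-related gene of the matrix, had the largest difference, 0.93 in the authors' deposited table, for an exon of 141 bases that is coding by the annotation. Of the 4 passing events of fbn-1, 2 were negative. Another of its exons, of 66 bases, had 0.52 as a skipped exon and -0.509 as a mutually exclusive exon. The muscle genes unc-22 (twitchin, a 75-base exon, -0.59) and unc-52 (perlecan, a 282-base exon, 0.507) had opposite signs in the authors' deposited table. itr-1, the inositol trisphosphate receptor gene, had -0.586 for a 63-base exon, and abl-1, a tyrosine kinase gene, had 0.577 for a 30-base exon in the authors' deposited table. None of the germline differences of the events whose values are given in this paragraph passed in the authors' deposited table.

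Retained introns could be measured where they match an annotated intron, in 84 of 283 passing events, with a median of 58.5 bases. The median was 57 bases for 36 negative and 79 bases for 48 positive passing events, and 67 bases for 78 measured events that did not pass. btb-17 had a difference of -0.443 and npr-7 of -0.583 in the authors' deposited table, for introns annotated at 52 bases in btb-17 and 55 bases in npr-7. amt-2, an ammonium transporter gene, had 0.628 in the soma and -0.461 in the germline comparison, and both passed in the authors' deposited table, for an intron annotated at 68 bases. Alternative 5' sites lay at a median of 96.5 bases over the 78 passing events that could be measured, against 8.5 bases for alternative 3' sites. By sign the median was 128 bases for 52 negative and 15 bases for 26 positive events, and it was 57 bases for 124 measured events that did not pass. clec-149 had an alternative 5' difference of -1.0 in the authors' deposited table, with sites 93 bases apart by the annotation.

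In all, 37 genes passed in both tables, which is 7.05% of the 525 genes with an expression change and 2.57% of the 1437 gene names with a splicing change. Of annotated protein-coding genes 2.5% passed for expression. That share also counts genes without a listed splicing event and leaves out noncoding genes, so it is not like for like with the 2.57%. Of these 37, 21 were higher and 16 lower in depleted worms, and their 42 events were 36 negative and 6 positive. They include npr-7 and btb-17, both higher in expression with a retained intron event, and F11F1.1 with an alternative 3' difference of -0.849 in the authors' deposited table. The ABC transporter gene abt-2, higher in expression, had an alternative 3' difference of -0.494 in the authors' deposited table, with sites 7 bases apart by the annotation. A transcript whose splicing changed need not pass for level, and the expression table holds only selected genes.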

How the data were processed

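The authors deposited 2 series tables and no per-sample values were used. The first gives, per the file headers, normalized group mean FPKM, a mean count over all samples (the authors' mean, used only as a filter), and the authors' log2 fold changes with Benjamini-Hochberg adjusted p-values. The second gives inclusion level differences (deposited as a signed score between -1 and 1) and false discovery rate q-values of 3096 events on StringTie models, per the file headers. Identifiers follow Ensembl 97 (same headers). STAR 2.7.2a, DESeq2 1.26.0, SAMtools 1.7, cutadapt 1.18 and Trim Galore 0.6.0 were used on build WBcel235/ce11, per the submitters' processing notes. Names of the read counter and of the splicing caller were not given in the sources used here.

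No count model, standard deviation or leave-one-out fit can be computed from group means, depth per sample is unknown, and every test is the authors' own. The expression rows are selected (adjusted p under 0.05 with a log2 fold change of 1 or more in size, in soma or germline), which enlarges listed changes and ties shares to the selection. The log2 ratio of FPKM means, with a pseudocount of 0.1, understates changes of low genes. It lay within 0.1 of the deposited log2 fold change for 826 of 882 genes, with a largest gap of 1.02, and had the opposite sign for 0 genes that passed. Signs of fold changes are depleted over control.

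Genes and exons came from the Ensembl 115 annotation of the same assembly, which matched 881 of 882 identifiers. Event starts, counted from 0 in the table, are given from 1. Distances between acceptor or donor sites are to the nearest shorter annotated exon with the same far edge. Splice site and promoter bases were not analysed here. Gene lists were built from symbols, and the members and lists were chosen with earlier results of these data known. Outside the lists set apart, candidates for naming were the 12 largest log2 FPKM ratios per direction with at least 1 FPKM in either group. Further candidates were up to 4 members per list by adjusted p (all where 6 or fewer passed) and the 10 most abundant genes. Candidate events were up to 4 per type and sign, up to 3 per list, and 8 in both tables. Only some of the candidates are named in the text, and a few other genes, such as noah-2, are. Y52B11B.1, the candidate with the largest decrease by this ratio, was left out. It averaged 0.100 FPKM in soma-depleted worms and 1.86 FPKM in soma controls. The distance rule was tested on a few made-up exons with known distances. Software was Python 3.11.15, pandas 2.3.3, numpy 2.4.6 and matplotlib 3.10.9. Alternatives were other thresholds, filters and pseudocounts and 1 event per gene.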

Additional observations from a re-analysis of the deposited data

How the results depend on the processing

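With log2 fold changes of 2 or more in size, 82 of the 525 genes were left, and at an absolute inclusion difference of at least 0.2, 721 of the 1606 events, in both cases because fewer qualify. The share of measured alternative 3' events with sites at most 20 bases apart was 91.1% at that difference, against 88.7%. Other thresholds and filters kept the gene count between 369 (mean count of at least 100) and 521 (FPKM of at least 1), and the event count between 1077 (q under 0.01) and 1417 (events that name 1 gene, added after seeing the data). With a difference of at least 0.2, 93.6% of 453 alternative 3' events were negative. Alternative 5' events changed their balance there, to 23 negative and 35 positive, against 78 and 62. A log2 FPKM ratio of 1 or more in size was reached by 457 listed genes, with 323 and 480 at pseudocounts of 1 and 0.01. With a pseudocount of 1 the log2 FPKM ratio of 9 of 126 candidate genes for naming shrank by over 1.5 times, pgp-8 to 2.69, and 0 changed sign. All 3 touch receptor neuron genes dropped out with log2 fold changes of 1 or more in size. No paired analysis was possible because only group means were at hand here, and leaving out replicates could not be run for the same reason. The planned count of bases at splice sites was not run, since no genome was used here. With 2 soma controls and no replicate values, how far each mean varies is unknown.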

Other observations

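Genes with a soma call that lie within 10000 bases of each other formed 60 neighbouring pairs outside the collagen, sperm and heat-shock lists, and 43 of them (71.7%) had the same direction. They included the lectin genes clec-227, clec-54 and clec-55 on chromosome V, the lipocalin-related genes lpr-3, lpr-5 and lpr-4 on chromosome X and the insulin-like genes ins-24, ins-30 and ins-26 on chromosome I, all lower in soma-depleted worms. clec-55 averaged 4.03 FPKM in soma-depleted worms and 9.96 FPKM in soma controls. lpr-3 averaged 5.19 FPKM in depleted worms and 12.5 FPKM in controls. ins-26 averaged 5.42 FPKM in depleted worms and 11.6 FPKM in controls. fbxa-189 and skr-5, 120 bases apart on chromosome V, went opposite ways, with fbxa-189 at 21.3 FPKM in depleted worms and 9.21 FPKM in controls and skr-5 at 9.31 FPKM in depleted worms and 18.9 FPKM in controls. Neighbours can share reads, which was not tested. Several of these pairs share a gene or overlap, so the pairs are not independent of each other. Among all soma calls outside the lists set apart, 200 were higher and 242 lower. The share of equal directions among distant pairs was not computed.

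Some genes held many events. parg-1, a poly(ADP-ribose) glycohydrolase gene, had 10 soma events with a q under 0.05 in the authors' deposited table, and nhr-179 had 6. Of 1437 gene names, 1193 had 1 event, 169 had 2 and 75 had 3 or more. Among the splicing events, 4 carried a name that reads as a calendar date, and by position these lie in apr-1 (1 event), jun-1 (2 events) and marc-4 (1 event).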
